A study of Homo sapiens with 2 samples.

Results

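The activin and TGF-beta ligands TGFB1, TGFB2, INHBA and INHBB, the follistatin-type proteins FST, FSTL1 and FSTL3 and the receptors ACVR1B, TGFBR1 and TGFBR2 were followed in Calu-3 cells with and without cyclic mechanical stretch. These 10 genes were taken as every probe set that the platform annotation assigns to them alone, which gave 29 probe sets, out of 19775 genes named on the array. Calu-3 is an established human lung adenocarcinoma line that grows as an epithelial sheet and is used as a model of airway epithelium. Cells in both groups are labelled only as Calu-3, with no transgene, drug or other genetic change named. They were grown to about 80% confluence on flexible plates coated with collagen type I, then kept in MEM with 10% serum. The stretched culture was cycled between 0.7% and 20% stretch as a sine wave, 2 s on and 2 s off, for 18 h, and the other culture was labelled with the same 18 h without stretch. Each condition was measured on 1 Affymetrix array, so the arrays have no replicates, no value below has an error between cultures, and no test between conditions was possible. The data come from a single cell line, stretched at 1 amplitude and for 1 duration.

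TGF-beta and activin are secreted dimers that bind a type II receptor, which then recruits and phosphorylates a type I receptor. The type I receptors TGFBR1 (for TGF-beta) and ACVR1B (for activin) phosphorylate SMAD2 and SMAD3, which enter the nucleus with SMAD4 and regulate transcription. Follistatin, made from FST, wraps around activin and keeps it from its receptors, and TGF-beta is held in a latent complex in the matrix until integrins, proteases or force release it. In airway epithelium the pathway is known for slowing proliferation, for promoting matrix production and for its part in remodelling after injury.

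Of the 10 genes, FST alone reached a 2-fold higher signal in the stretched array (1 gene) and TGFB2, FSTL1 and FSTL3 a 2-fold lower one (3 genes). Among all 13453 measured genes, 7.78% were higher and 7.49% lower by this measure. A further 5 genes differed by less than 2-fold (TGFB1, INHBA, ACVR1B, TGFBR1 and TGFBR2), and INHBB lay below the floor in both arrays. In RNA from whole cultures, fewer cells that express a gene and less RNA per cell cannot be told apart. The floor is the median signal of all non-control probe sets, 28.69 without stretch and 28.35 with it. Signals below it were set to it, so that a difference with 1 array at the floor is a lower bound, and a gene counts as measured when its representative, its brightest probe set by mean log2 signal over both arrays, exceeds the floor in at least 1 array. Each of the 9 measured members exceeded it in both arrays. The median log2 difference, stretched minus non-stretched, was -0.26 over the 9 measured members and 0.005 over all measured genes. Across genes with more than 1 probe set, the SD of a single probe set's log2 difference was 0.36, and it was 0.49, 0.35 and 0.21 where the dimmer probe set had a mean signal under 100, of 100 to 500 and over 500. This SD covers probe noise and isoform differences and leaves out the spread between cultures.

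The RefSeq sequences just before the transcription start are shown for the 4 genes that differed at least 2-fold, since these genes carry the comparison. Each window holds the 250 bases before the annotated start, 5′ to 3′ on the strand of the gene, in build GRCh38.p14: FST at chr5:53480379-53480628 on the plus strand, TGFB2 at chr1:218345086-218345335 on the plus strand, FSTL1 at chr3:120450993-120451242 on the minus strand and FSTL3 at chr19:676142-676391 on the plus strand. Capitals mark matches, on either strand, to the AP-1 pattern TGANTCA, the cAMP response element TGACGTCA, the SMAD box CAGAC, the TEAD site GGAATG, the GC box GGGCGG and the TATA box TATAAA. N stands for any base, so a match to TGANTCA need not be an AP-1 consensus site.
FST: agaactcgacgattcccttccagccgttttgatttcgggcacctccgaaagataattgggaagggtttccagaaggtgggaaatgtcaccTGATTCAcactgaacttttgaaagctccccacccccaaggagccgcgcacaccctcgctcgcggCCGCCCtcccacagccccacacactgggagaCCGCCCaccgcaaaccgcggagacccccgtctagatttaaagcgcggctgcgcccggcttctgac
TGFB2: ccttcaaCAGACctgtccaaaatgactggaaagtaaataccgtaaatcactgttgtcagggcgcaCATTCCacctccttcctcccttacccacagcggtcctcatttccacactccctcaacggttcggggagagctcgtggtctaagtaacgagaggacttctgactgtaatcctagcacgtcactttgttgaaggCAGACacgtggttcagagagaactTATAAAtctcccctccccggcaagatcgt
FSTL1: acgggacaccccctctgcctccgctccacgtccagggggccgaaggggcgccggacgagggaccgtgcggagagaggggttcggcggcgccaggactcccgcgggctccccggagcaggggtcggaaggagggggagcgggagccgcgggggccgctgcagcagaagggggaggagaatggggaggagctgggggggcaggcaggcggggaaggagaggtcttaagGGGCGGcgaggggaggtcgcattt
FSTL3: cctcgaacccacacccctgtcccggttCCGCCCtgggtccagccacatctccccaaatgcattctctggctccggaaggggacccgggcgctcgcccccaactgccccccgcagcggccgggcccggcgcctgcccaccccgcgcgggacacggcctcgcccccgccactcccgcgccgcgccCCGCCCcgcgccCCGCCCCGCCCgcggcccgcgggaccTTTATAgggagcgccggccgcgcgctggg

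The FST window held 2 GC boxes and 1 match to the AP-1 pattern TGANTCA, which began 160 bases before the start. The letters of this match were TGATTCA, with T as the middle base. Matches to TGANTCA, with any middle base, occurred in 6.57% of 35116 such windows in the RefSeq table. Of the 19 windows of the 10 genes, 1 held such a match, that of FST, a share not above that of all windows. The TGFB2 window held 2 SMAD boxes, 1 TEAD site and a TATA box that began 29 bases before the start. SMAD boxes, TEAD sites and TATA boxes occurred in 38.0%, 11.9% and 10.7% of all windows. The FSTL1 window held 1 GC box and the FSTL3 window 4, the nearest 2 of which overlap by a base, besides a TATA box on the opposite strand, and GC boxes occurred in 42.6% of windows. The cAMP response element, which occurred in 1.65% of windows, had no match in these 4 windows. The share of G and C was 60.0% for FST, 50.4% for TGFB2, 74.4% for FSTL1 and 80.0% for FSTL3. A match is a run of letters and was not measured as a binding site here.

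**Figure D1:**
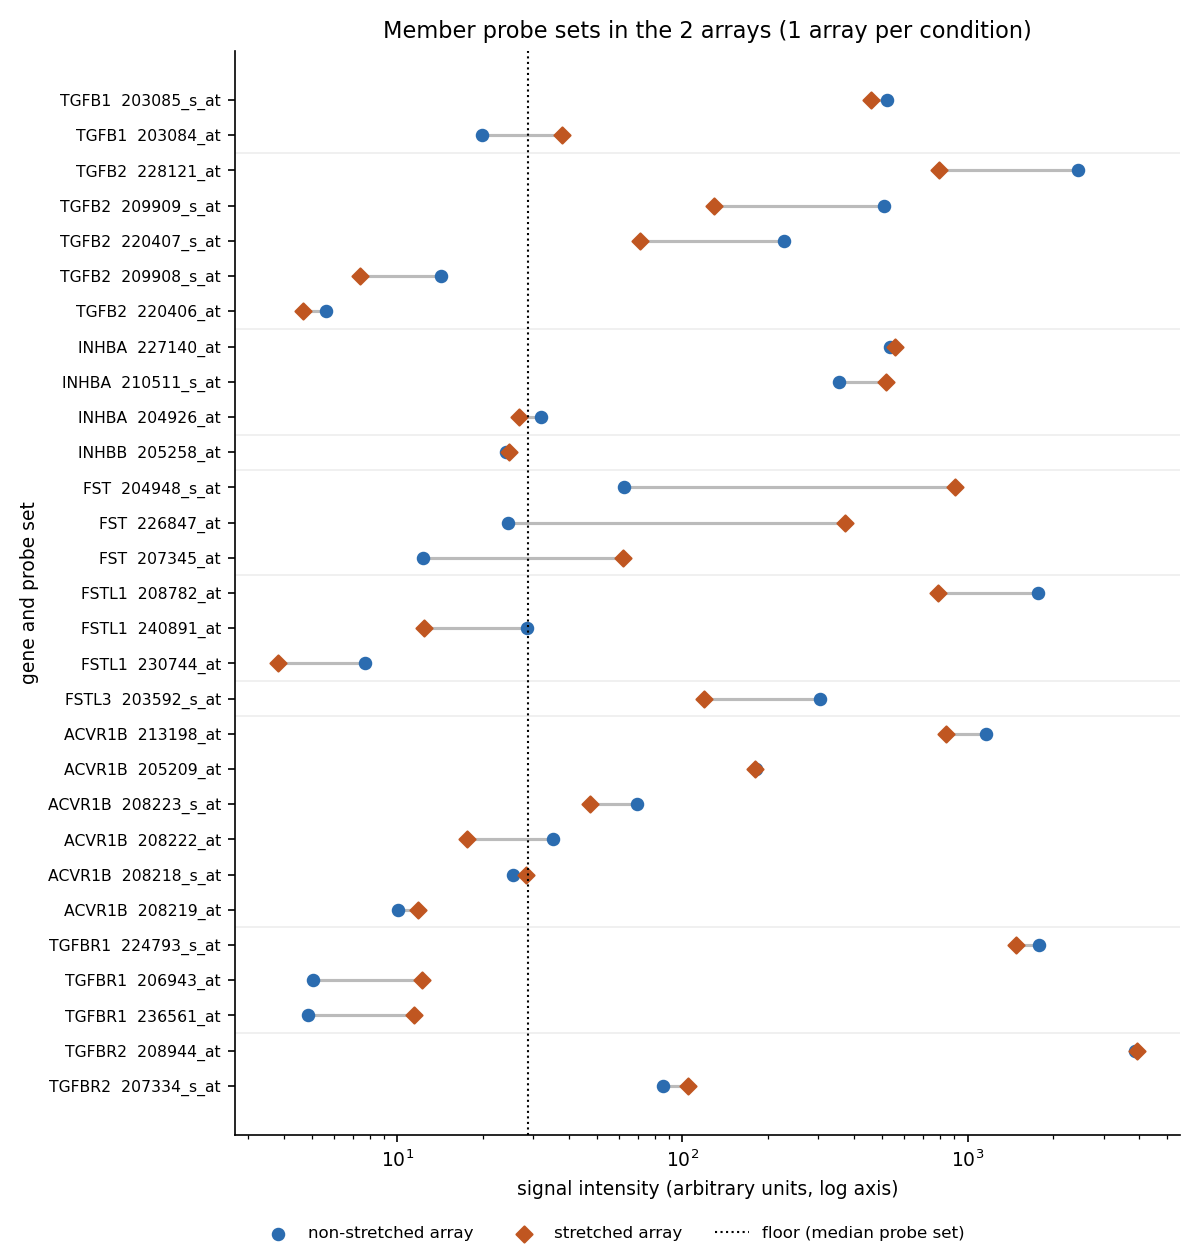
Signal intensity (arbitrary units, log axis) of the 29 probe sets of the 10 genes, with circles for the non-stretched and diamonds for the stretched array and a dotted line at the floor of the non-stretched array, 28.69. All 3 FST probe sets have the stretched value to the right, and the 3 bright TGFB2 probe sets have it to the left.

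TGFB2, a TGF-beta ligand that is often expressed by epithelial cells, was the ligand with the largest difference among the measured TGF-beta and activin ligands of the set. Its brightest probe set read 2449 without stretch and 796 with stretch, which is 3.08-fold lower. The next probe sets went from 508 to 129 and from 228 to 71.1, 3.95-fold and 3.20-fold lower. All 3 probe sets above the floor were thus at least 2-fold lower, between -1.98 and -1.62 on the log2 scale. Among 2968 genes with at least 3 measured probe sets, 1.58% had every measured probe set at least 2-fold lower. The other 2 TGFB2 probe sets were below the floor in both arrays, at 14.3 and 7.40 and at 5.62 and 4.67. TGFB2 ranked 361 from the lowest among all measured genes.

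TGFB1 encodes the ligand most widely studied in fibrosis and immune control. Its brightest probe set read 524 without and 457 with stretch, a log2 difference of -0.20, within 1 SD of a single probe set. Its other probe set went from 19.7, below the floor, to 37.8, just above it, a difference of at least 0.40 in the opposite direction. The direction for TGFB1 therefore turned with the choice of probe set.

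INHBA encodes the activin beta A chain, whose dimer is activin A, the ligand that follistatin binds. By its brightest probe set the signal was 534 without and 557 with stretch, a log2 difference of 0.06. A second probe set went from 354 to 516, a difference of 0.54, and the dimmest lay near the floor, at 32.0 and 26.8. None of these reached 2-fold, and the sign of the brightest turned to -0.05 when the arrays were centred on their 75th percentile or quantile-normalised and to -0.04 with the loess trend removed. INHBB, which encodes the beta B chain of activin B, had 1 probe set, at 24.1 and 24.6, below the floor in both arrays.

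FST was the only member higher by at least 2-fold. The brightest of its probe sets read 62.5 without and 902 with stretch, 14.4-fold higher. A second probe set went from 24.5, below the floor, to 371, at least 12.9-fold higher, and the dimmest from 12.2 to 62.0, at least 2.16-fold higher. All 3 probe sets lay in the same direction and above 2-fold, as they did in 1.99% of the 2968 genes with at least 3 measured probe sets. FST ranked 5 from the highest among the 13453 measured genes, and 0.0520% of measured genes lay at least as far from 0 in either direction. The size of the FST difference depends on the non-stretched signal, which was close to the floor. Raising the floor to the 75th percentile left a difference of at least 1.97 on the log2 scale, against 3.85 as measured. The annotation lists the brightest and the dimmest FST probe sets under different transcript records of the gene, and which follistatin isoform each one reads was not tested.

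FSTL3 encodes a smaller follistatin relative that also binds activin and myostatin. Its single probe set, which ends in _s_at and can therefore read related transcripts, went from 303 to 119, 2.54-fold lower, with a log2 difference of -1.35. With the higher floor at the 75th percentile only a bound of 0.28 in size was left, which is below 2-fold. FSTL1, a secreted glycoprotein that shares the follistatin domain but is better known for acting on BMP and immune signalling, went from 1761 to 786 in its brightest probe set, 2.24-fold lower. Its other 2 probe sets were below the floor in both arrays, at 28.4 and 12.4 and at 7.71 and 3.82. Averaging all 3 brought the difference to -0.40, because the dim ones enter at the floor. The 3 follistatin-type genes thus did not share a direction: FST was higher and FSTL1 and FSTL3 were lower.

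**Figure D2:**
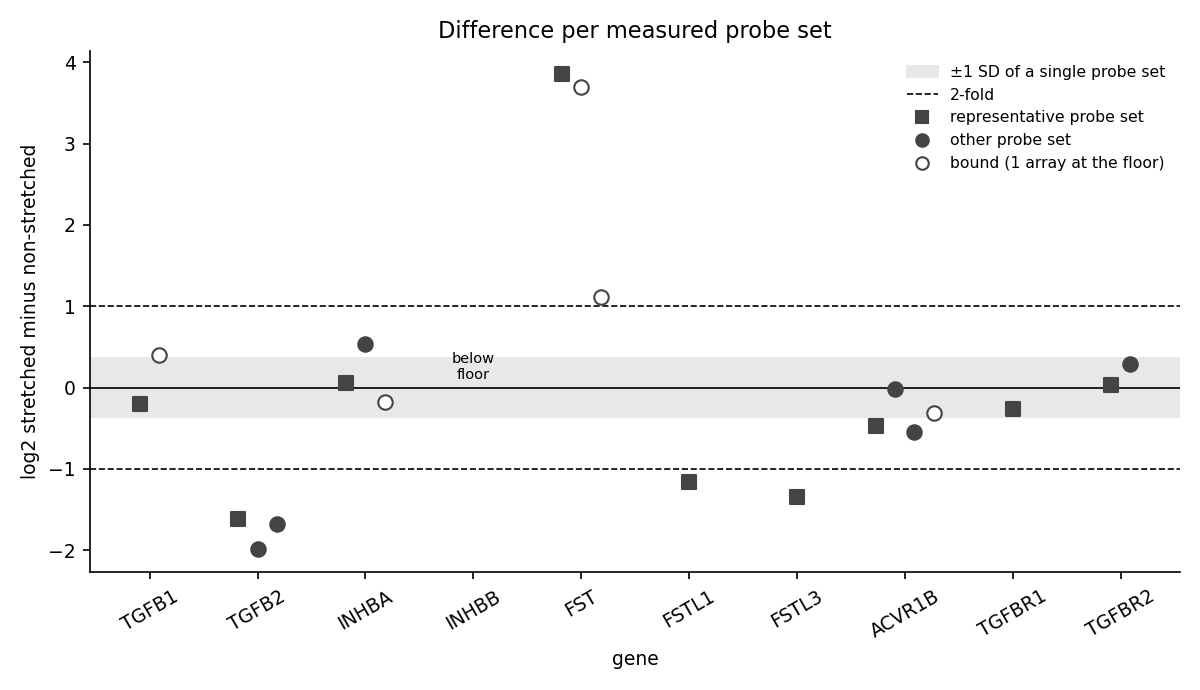
Log2 difference, stretched minus non-stretched, for each measured probe set of the 10 genes, with squares for the representative probe set, open symbols for lower bounds, dashed 2-fold lines and a grey band of 0.36 on each side of 0. FST lies at 1.11 to 3.85, TGFB2 at -1.98 to -1.62, FSTL1 and FSTL3 at -1.16 and -1.35, and the other measured probe sets lie between the dashed lines.

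The receptors differed less. TGFBR2, the type II receptor that binds TGF-beta first, read 3855 without and 3925 with stretch in the brighter of its probe sets, while the dimmer one went from 85.4 to 105. These log2 differences were 0.03 and 0.29, and the first turned to -0.08 when the arrays were centred on the 75th percentile and to -0.01 with the loess trend removed. TGFBR1, the type I receptor for TGF-beta, went from 1775 to 1479, a log2 difference of -0.26, in its only probe set above the floor, which ends in _s_at. Its other probe sets read 5.04 and 12.2 and 4.84 and 11.4, below the floor in both arrays.

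ACVR1B, the type I receptor for activin also called ALK4, had 6 probe sets, of which 4 exceeded the floor in at least 1 array. The brightest went from 1161 to 837, a log2 difference of -0.47. The others went from 182 to 179.6, from 69.2 to 47.4 and from 35.2 to 17.5, with log2 differences of -0.02, -0.55 and at least 0.31 in size in the lower direction. All 4 lay below 0, and none reached 2-fold with signals set to the floor. Of all measured genes, 43.0% lay at least as far from 0 as ACVR1B, 64.2% as far as TGFBR1 and 95.8% as far as TGFBR2. The same share was 5.40% for TGFB2, 8.32% for FSTL3 and 11.3% for FSTL1.

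**Figure D3:**
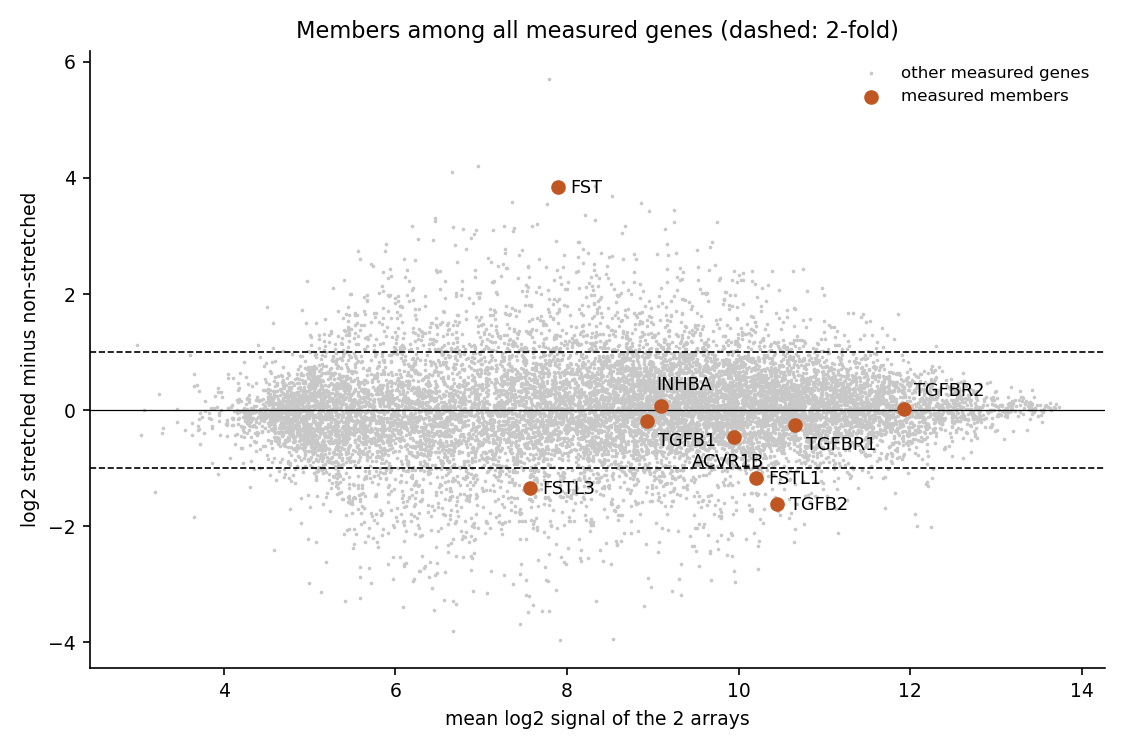
Log2 difference, stretched minus non-stretched, against the mean log2 signal of both arrays for 13453 measured genes by representative probe set, with the 9 measured members named and dashed lines at 2-fold. FST stands at 3.85 near the upper edge of the cloud, TGFB2, FSTL1 and FSTL3 lie below the lower dashed line, and the other 5 lie between the lines.

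Other genes of the pathway were followed as lists, which were chosen with earlier results of these data known. Apart from the members these lists held 106 genes, counted once each, with 99 on the array under a single gene name and 80 measured. Of the 80, 5 (6.25%) were higher and 10 (12.5%) lower by 2-fold or more, with a median log2 difference of -0.19, against the 7.78% and 7.49% of all measured genes and their median of 0.005. The count higher was 0 when the floor was raised to the 75th percentile, and the count lower was 4 when _x_at and _s_at probe sets, which can read related transcripts, were left out. The counts per list below include the members.

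Ligands of the superfamily were lower or little different: of 13 measured, 3 were lower by 2-fold or more and 0 were higher by as much. The median was -0.43 and turned to 0.07 when _x_at and _s_at probe sets were left out. INHBE, which encodes the activin beta E chain, went from 224 to 4.57 and was at least 7.89-fold lower. GDF15, a stress-induced member of the superfamily that signals through GFRAL in the brainstem, went from 3447 to 881, 3.91-fold lower in a probe set ending in _x_at. LEFTY1, an inhibitor of nodal signalling, went from 56.1 to 21.2, at least 1.98-fold lower. BMP7, a bone morphogenetic protein, was 1.72-fold lower (151 to 88.2), with its other probe set at 0.08.

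Among 9 measured receptors, 1 was higher and 1 lower by 2-fold or more, and the median was -0.44. TGFBR3, the co-receptor betaglycan that presents TGFB2 to its receptors, was 2.20-fold higher (111 to 244), with its 2 probe sets at 1.09 and 1.14. ACVR1, a type I receptor used by BMPs and also called ALK2, was 2.01-fold lower (3135 to 1562), a difference at the threshold that fell short of it when the arrays were centred on their medians or on the spike-ins. BMPR2, the type II receptor for BMPs, was 1.99-fold lower (1439 to 723), with its 5 measured probe sets between -1.31 and -0.98. ACVR2B, an activin type II receptor, was 1.62-fold lower.

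Of 12 measured extracellular antagonists and latency proteins, 2 were higher and 5 lower by 2-fold or more, and the median was -0.48. Besides FST, FSTL1 and FSTL3, these were NOG and the latent TGF-beta binding proteins LTBP1, LTBP2 and LTBP3. NOG, the BMP antagonist noggin, was 4.68-fold higher from a signal near the floor (33.0 to 154). LTBP2 was 3.75-fold lower (218 to 58.0) with its 2 probe sets at -1.91 and -1.20. LTBP3 was 3.52-fold lower (739 to 210), although another of its 3 measured probe sets differed by only -0.19. LTBP1 was 2.18-fold lower (1135 to 520), with both probe sets past 2-fold. When _x_at and _s_at probe sets were left out, 2 genes of this list were lower by 2-fold or more.

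Proteins with a follistatin domain had a median of -0.14 over 9 measured genes, and past 2-fold were FST and SMOC1 (2 higher) and FSTL1 and FSTL3 (2 lower). SMOC1, a matricellular protein, went from 88.3 to 277, with its other probe set at -0.02. The testicans SPOCK2 and SPOCK3 were 1.90-fold (6447 to 3390) and at least 1.83-fold lower by the representative probe set. The other SPOCK2 probe set was at -1.39, past 2-fold. TMEFF2 differed by 0.18. Activators of latent TGF-beta differed little by the representative probe set. Of 9 listed genes, 8 were on the array under a single gene name and measured. All 8 lay below 0, as did 6662 of the 13453 measured genes, and the nearest was at -0.04. None reached 2-fold, and the median was -0.21. The spike-ins had a median of -0.11, further from 0 than the nearest of these genes. With the arrays centred on the spike-ins, the median of the list was -0.09. The integrin subunit ITGAV was at -0.37 and thrombospondin THBS1 at -0.48, with THBS1 probe sets ranging up to 0.98. Those of another gene of this list ranged up to 0.99. The proprotein convertase FURIN was at -0.23, and the membrane protease MMP14 was at -0.51 with another probe set at -2.17.

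SMADs and their regulators had a median of 0.08 over 21 measured genes, of which 1 was higher and 0 lower by 2-fold or more, and the median turned to -0.02 when the arrays were centred on the 75th percentile. SMAD9, a receptor SMAD of the BMP branch, was 2.54-fold higher (65.7 to 167). SMAD3, which carries the TGF-beta and activin signal, was 1.63-fold higher (727 to 1189), with 4 probe sets from 0.14 to 0.90. SMAD7, the inhibitory SMAD, was 1.62-fold lower (869 to 537). SKIL, a repressor of SMAD-driven transcription, was 1.64-fold lower (3913 to 2386), with 3 probe sets from -1.36 to -0.68.

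Of 20 measured genes known to be induced by TGF-beta or activin, 5 were lower and 1 higher by 2-fold or more, the median was -0.46 and 15 genes lay below 0. Among all 13453 measured genes, 7.49% were lower and 7.78% higher by 2-fold or more, and 6662 lay below 0. The count lower was 2 when _x_at and _s_at probe sets were left out, and raising the floor to the 75th percentile gave 3 lower and 0 higher. CDKN2B, which encodes the cell-cycle inhibitor p15, was 3.25-fold lower (1594 to 491), with its other probe set at -0.14. TAGLN, an actin-binding protein, was 2.70-fold lower (484 to 179), with 3 probe sets from -1.46 to -0.59, and LTBP2 was lower as above. SPHK1, which makes sphingosine 1-phosphate, was 3.10-fold higher (60.3 to 187). FN1 and BHLHE40, named to complete the count after their values were seen, were at -1.37 and -1.26. The 5 FN1 probe sets ran from -1.48 to -0.84, and the other BHLHE40 probe set was at -0.83. Genes induced by BMP had a median of 0.19 over 7 measured, of which SMAD9 (1 gene) was higher and 0 were lower by 2-fold or more. The inhibitors of differentiation ID2 and ID3 were at -0.30 and 0.61 and the inhibitory SMAD6 at -0.47. The median of the BMP list turned to -0.21 with the floor at the 75th percentile.

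**Figure D4:**
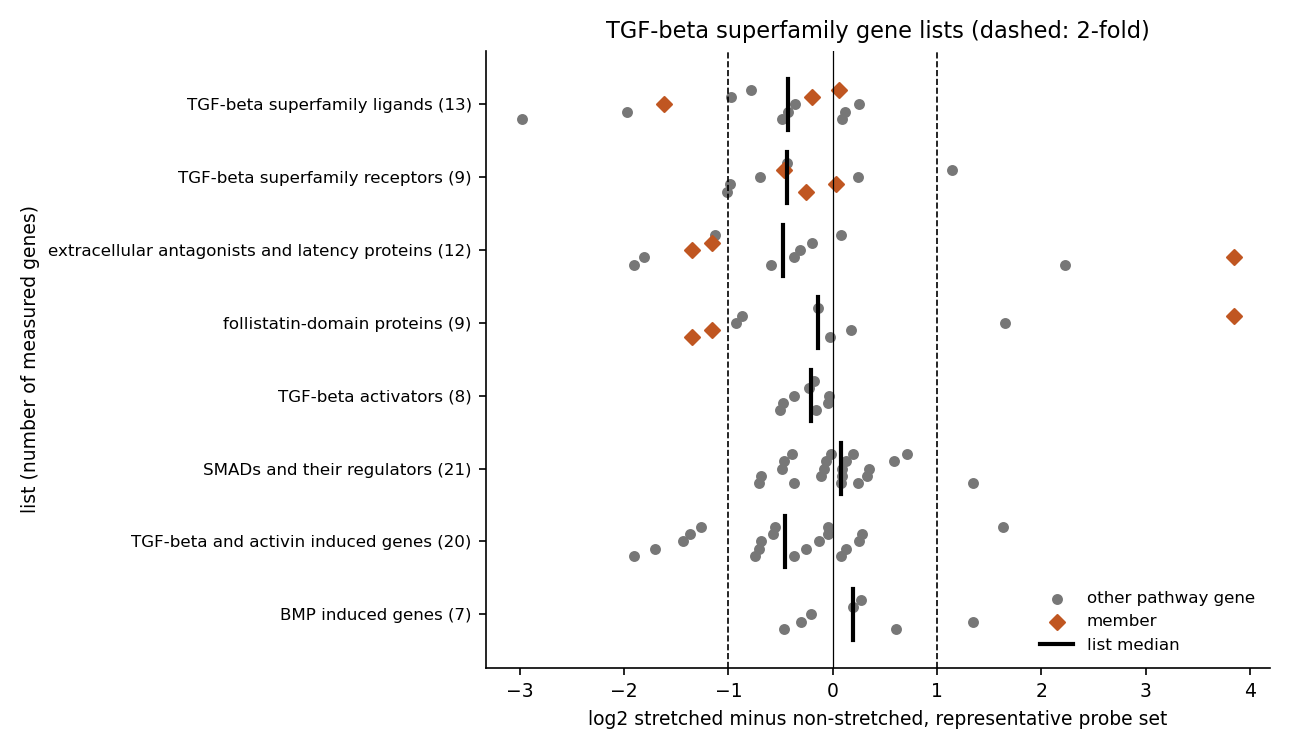
Log2 difference, stretched minus non-stretched, by representative probe set for the measured genes of 8 lists, with diamonds for members, circles for other genes, a bar at each list's median and dashed lines at 2-fold. The medians run from -0.48 for the extracellular antagonists and latency proteins to 0.19 for the genes induced by BMP.

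The labelled cell type was checked against markers. All 10 epithelial markers exceeded the floor in both arrays, with a summed signal, to which keratins contribute most, of 58876 without and 57658 with stretch. EPCAM, CDH1, KRT8 and KRT18 were at -0.15, -0.38, 0.21 and 0.22 on the log2 scale. ELF3, an epithelial transcription factor, was the 1 marker lower by 2-fold or more (2934 to 810, with 3 probe sets from -1.86 to -1.59), and ESRP1 and CLDN4 were at -0.80 and -0.67. Of 10 fibroblast markers, which summed to 277 and 221, COL1A1 (126 and 105) and DCN (45.1 and 39.2) exceeded the floor in both arrays. COL1A2 (28.8) just did so without stretch, while the others, among them COL3A1, PDGFRA and PDGFRB, were below it in both. The 3 measured COL1A1 probe sets ran from -2.52 to -0.26 on the log2 scale. Of 6 endothelial markers, which summed to 104 and 109, PECAM1 (57.7 and 51.3) exceeded the floor and the others, among them VWF and CDH5, did not. Of 6 leukocyte markers on the array, which summed to 228 and 190, CD14 (78.6 and 55.1) and ITGAM (35.3 and 34.9) exceeded the floor in both arrays, CD3D, CD3E and CSF1R in 1 array each, and PTPRC in neither. The part of the marker differences in the values of the members was not tested. The control genes ACTB and GAPDH differed by 0.08 and 0.11 on the log2 scale. The ratio of 3′ to 5′ control probe sets was 1.04 without and 1.01 with stretch for ACTB and 0.88 and 0.86 for GAPDH. By the representative probe set, all 10 genes of a DNA replication list were at least 2-fold higher in the stretched array, against 7.78% of all measured genes. This list was chosen with earlier results of these data known. Its median log2 difference was 2.12, although a further probe set of a gene in it was at -0.33. The part of these genes in the differences of the members was not tested.

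The directions held for the 4 genes past 2-fold. Across the reported setting and 9 alternatives in scaling, floor and probe choice, FST ranged from 1.97 to 3.97 and TGFB2 from -1.73 to -1.06, both past 2-fold in each. FSTL1 ranged from -1.27 to -0.40 over the same 10 settings and FSTL3 from -1.45 to -0.28 over the 9 that gave it a value, each past 2-fold in all but 1.

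**Figure D5:**
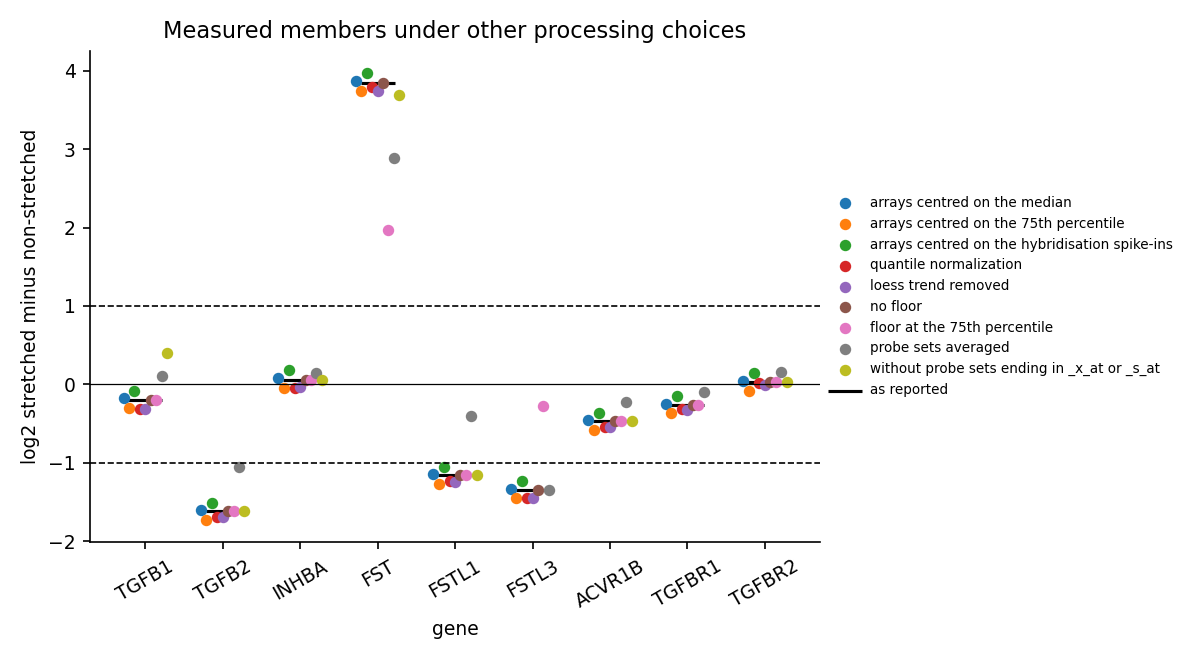
Log2 difference, stretched minus non-stretched, of the 9 measured members as reported (black bar) and under 9 other processing choices (coloured points), with dashed lines at 2-fold. FST and TGFB2 stay outside the dashed lines under each choice, FSTL1 and FSTL3 enter the middle band under 1 choice each, and TGFB1, INHBA and TGFBR2 have points on both sides of 0.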

How the data were processed

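Total RNA from 1 stretched and 1 non-stretched Calu-3 culture was labelled as biotinylated cRNA, starting from 6 µg, and hybridised to Affymetrix arrays, per the labels' protocols. The deposited table holds 1 linear signal intensity per probe set and array for 54675 probe sets, 62 of them controls; its summarisation, scaling and software were not given in the sources used here. Intensities were used as deposited, since the medians were 28.69 and 28.35. They were converted to log2 and floored at each array's 50th percentile over non-control probe sets. Names came from the platform annotation, with symbols updated to RefSeq (GRCh38.p14): 41091 had 1 gene, 1801 several and 11721 none. Only the first class was used. A difference counted when it reached 2-fold. Scripts ran in Python 3.11.15 with numpy 2.4.6 and statsmodels 0.14.6 and were tested on simulated data. The members and lists were chosen with earlier results of these data known. Named were all members, up to 4 further genes with the largest difference per pathway list, and ACTB and GAPDH; markers and FN1 and BHLHE40 were named besides. The alternatives were centring, quantile and loess scaling, other floors, averaged probe sets, probe sets without _x_at or _s_at, and a 1.5-fold threshold. With 1 array per group the number of arrays limits the precision, and no array was left out.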

Additional observations from a re-analysis of the deposited data

How the results depend on the processing

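No paired analysis was possible because each group has 1 array. Of the measured members, FST moved to 1.97 under the 75th percentile floor and to 2.89 with probe sets averaged, and TGFB2 to -1.06 with probe sets averaged. FSTL1 was at -0.40 with probe sets averaged, FSTL3 at -0.28 under the 75th percentile floor, and TGFB1 at 0.40 when _x_at and _s_at probe sets were left out, where FSTL3 and TGFBR1 had no value. The members' counts of 1 higher and 3 lower stayed within 1.5 times, at 1 and at 2 to 3. Of the other pathway genes (5 higher, 10 lower), 0 were at least 2-fold higher under the 75th percentile floor and 3 with probe sets averaged. Without _x_at or _s_at probe sets 4 were lower, and at 1.5-fold 8 of the 80 were higher and 20 lower. Over all genes, 549 of 8590 measured were higher and 394 lower under that floor, and 828 and 653 of 13473 with probe sets averaged. Without _x_at or _s_at probe sets, 907 of 10516 were higher and 798 lower. At 1.5-fold, 2405 of 13453 were higher and 2249 lower. With the floor at the 75th percentile, which leaves fewer genes measured, the counts higher were 0 for the BMP induced, SMAD, TGF-beta induced and receptor lists and 1 for the antagonist and follistatin-domain lists; the counts lower were 3 for the TGF-beta induced and antagonist lists and 1 for the follistatin-domain list. With probe sets averaged, the counts higher were 0 for the BMP induced and SMAD lists and 1 for the follistatin-domain list. Without _x_at or _s_at probe sets, which leaves fewer genes, 2 of the TGF-beta induced list, 2 antagonists and 1 follistatin-domain gene were lower. At 1.5-fold, 2 BMP induced genes and 3 SMAD genes were higher, and 2 SMAD, 8 TGF-beta induced, 5 ligand, 3 receptor and 4 follistatin-domain genes were lower. The count of receptors lower was 0 with the arrays centred on the median or the spike-ins and 2 centred on the 75th percentile, quantile-normalised or with the loess trend removed, because ACVR1 and BMPR2 lie at the threshold. Over all genes the median difference moved from 0.005 to -0.103 when centred on the 75th percentile and to 0.119 when centred on the spike-ins, which gave 1317 genes higher and 830 lower against 1046 and 1008. Differences near the floor are limited by signal over background.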
